A study of Homo sapiens with 8 samples.

Results

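Cholesterol that a cell takes up or makes can be exported, stored as ester or moved between membranes, and the 9 genes described here code for parts of that traffic: ABCG1, ABCA1, APOE, NR1H3, NR1H2, MYLIP, NPC1, NPC2 and SOAT1. They were measured in human breast epithelial cells on 8 Affymetrix U133 Plus 2.0 arrays, on which a gene is read by 1 or more probe sets, each a group of short probes with 1 signal. The genes were chosen with earlier results of these arrays known, so how far they move is a description and no sign that they stand apart. A probe set was taken for a gene where the array annotation gave it that symbol and no other. Of 9 genes 8 had such a probe set, 26 of the 54613 probe sets tested, and no value is given for NR1H2, which no probe set of the annotation names. Each of the 8 genes is given by its brightest probe set, selected on the mean log2 signal over the 8 arrays, with its other probe sets as a check.

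The 4 groups had 2 arrays each. They were trMCF clone 11, a ring-cloned line grown from a single colony of MCF-10F cells that had been transformed with a high dose of estradiol; trMCF clone 11 after 26 days in 1 µM all trans-retinoic acid (ATRA); the same clone after 26 days in 10 µM ATRA; and MCF-10F, a spontaneously immortalized normal-like breast line that lacks the estrogen receptor. All groups were grown in medium with horse serum, which carries lipoproteins. A DMSO vehicle control is described, but not whether the untreated clone was that control. Nothing given states that paired arrays are separate cultures, and a p-value then measures only the spread between them, which may be technical. A single clone stands for the transformed state.

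The signals are linear intensities scaled by the authors, with array medians of 47.3 to 48.8, and 21.5 to 23.7% of the signals of an array were under 16, where a change has little meaning. The disease state label of trMCF clone 11 replicate 1 reads normal, against its title, and it was grouped by title. The 2 arrays of trMCF clone 11 were more than 2-fold apart for 7.332% of 19775 genes and those of MCF-10F for 3.843%, against 0.091% at 1 µM and 0.142% at 10 µM. Among the 8 genes, ABCG1 and MYLIP were more than 2-fold apart between the MCF-10F arrays. Of 7 markers of mammary epithelium, 5 or 6 were over 200 on both arrays of every group. KRT19, a luminal keratin, was between 26.5 and 72.1 on all arrays, and KRT14, a basal keratin, was 3230.3 and 4548.9 in trMCF clone 11, 212.0 and 115.8 at 1 µM, 42.3 and 34.0 at 10 µM, and 9149.5 and 1329.7 in MCF-10F, whose arrays lay far apart. Of markers of other cell types, PTPRC, the pan-leukocyte antigen, was at 9.9 to 14.4, ALB of hepatocytes at 9.4 to 13.6 and ADIPOQ of adipocytes at 7.1 to 9.5, but in each group most markers on those lists were above 16 on at least 1 array, with CD14 of macrophages up to 660.6 and COL1A1 of fibroblasts up to 1338.1.

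LXR is a nuclear receptor for oxysterols, the oxidised forms of cholesterol, with an α form coded by NR1H3 and a β form coded by NR1H2. It binds DNA together with RXR, at direct repeats of a hexamer spaced by 4 bases (DR4), and in macrophages and liver it turns on genes that move cholesterol out of the cell. ABCA1 and ABCG1 are the exporters among them, APOE is an apolipoprotein that accepts the exported sterol, and MYLIP, also called IDOL, is a ubiquitin ligase that marks the LDL receptor and its relatives for breakdown. NPC2 and NPC1 pass cholesterol in turn out of the lysosome, and SOAT1 joins it to fatty acids for storage in droplets. ATRA acts through RAR, another receptor that works as a dimer with RXR.

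The bases just upstream of 3 of the genes are shown because ABCA1 holds the element through which LXR is known to act, while MYLIP and SOAT1 changed in opposite directions in every comparison that called both. RefSeq gave 14 windows of 250 bases upstream of a start for 8 of the 9 genes on the GRCh38.p14 build. ABCG1 had no window, so the bases upstream of it were not searched. On that build ABCG1 lies at chr21:42199689-42297244, MYLIP at chr6:16129086-16163887, SOAT1 at chr1:179293797-179358680 and ABCA1 at chr9:104781006-104928155. The capitals in the ABCA1 window, chr9:104928156-104928405 on the minus strand, mark the closest match to the DR4 letters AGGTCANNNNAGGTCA on either strand. In the windows of MYLIP, chr6:16128836-16129085, and SOAT1, chr1:179293547-179293796, both on the plus strand, capitals mark GC boxes (GGGCGG) and CCAAT boxes on either strand. All are written 5′ to 3′ along the gene.
ABCA1: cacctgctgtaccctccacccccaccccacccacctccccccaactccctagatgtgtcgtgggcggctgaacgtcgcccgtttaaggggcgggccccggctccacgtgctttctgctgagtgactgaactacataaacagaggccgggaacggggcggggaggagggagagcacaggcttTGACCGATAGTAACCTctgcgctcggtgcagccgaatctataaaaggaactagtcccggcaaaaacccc
MYLIP: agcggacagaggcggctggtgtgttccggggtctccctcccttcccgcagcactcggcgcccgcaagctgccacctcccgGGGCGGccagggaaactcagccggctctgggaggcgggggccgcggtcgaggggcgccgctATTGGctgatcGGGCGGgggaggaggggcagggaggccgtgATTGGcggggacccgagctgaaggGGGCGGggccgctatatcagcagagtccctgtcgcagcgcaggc
SOAT1: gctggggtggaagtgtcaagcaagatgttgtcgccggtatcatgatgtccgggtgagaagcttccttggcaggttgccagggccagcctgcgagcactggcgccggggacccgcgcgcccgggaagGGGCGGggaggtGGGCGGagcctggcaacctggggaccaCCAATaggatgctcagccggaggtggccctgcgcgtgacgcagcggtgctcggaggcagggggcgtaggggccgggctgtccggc

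The ABCA1 match differed from the DR4 letters at 2 of 12 fixed bases. It lay 69 to 54 bases upstream of the start and reads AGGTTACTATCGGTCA on the other strand. A match this close was found in 2.03% of 35116 windows of that length. A window of NPC2 came next, with 3 mismatches, and the other 12 windows of these genes had 4 or 5. The single half-site AGGTCA was in 1 of the 14 windows, the most upstream of NR1H3, against 12.1% of all windows. MYLIP had 3 GC boxes and 2 CCAAT boxes and SOAT1 2 GC boxes and 1 CCAAT box, against 42.6% of all windows with any GC box and 32.0% with any CCAAT box. These matches are descriptions of letters, with no binding measured.

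Of the 8 genes, ABCG1 and MYLIP were upregulated and SOAT1 was downregulated in trMCF clone 11 compared with MCF-10F. MYLIP was then downregulated at both ATRA doses compared with the untreated clone, and SOAT1 was upregulated at 10 µM. ABCG1 passed neither test against the untreated clone on its brightest probe set, and its signal was higher at 10 µM than at 1 µM on every probe set. ABCA1, APOE, NPC1 and NPC2 were called in none of the 6 comparisons of groups, and NR1H3 had its lowest signals in MCF-10F without passing it. A gene is called up- or downregulated where limma's moderated test gave a Benjamini-Hochberg adjusted p under 0.05 over all 54613 probe sets. In such bulk samples, fewer cells of a type and less RNA per cell cannot be told apart. All 3 calls in the clone were lost in the fit of only the 4 arrays compared (adjusted p = 0.0919 for ABCG1, 0.12 for MYLIP and 0.119 for SOAT1). Leaving out 1 µM ATRA replicate 1 or replicate 2 repeats that fit, since a lone 1 µM array adds nothing to the spread. The calls at a dose were lost without either replicate 1 or replicate 2 of that dose, which leaves a lone array.

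**Figure D1:**
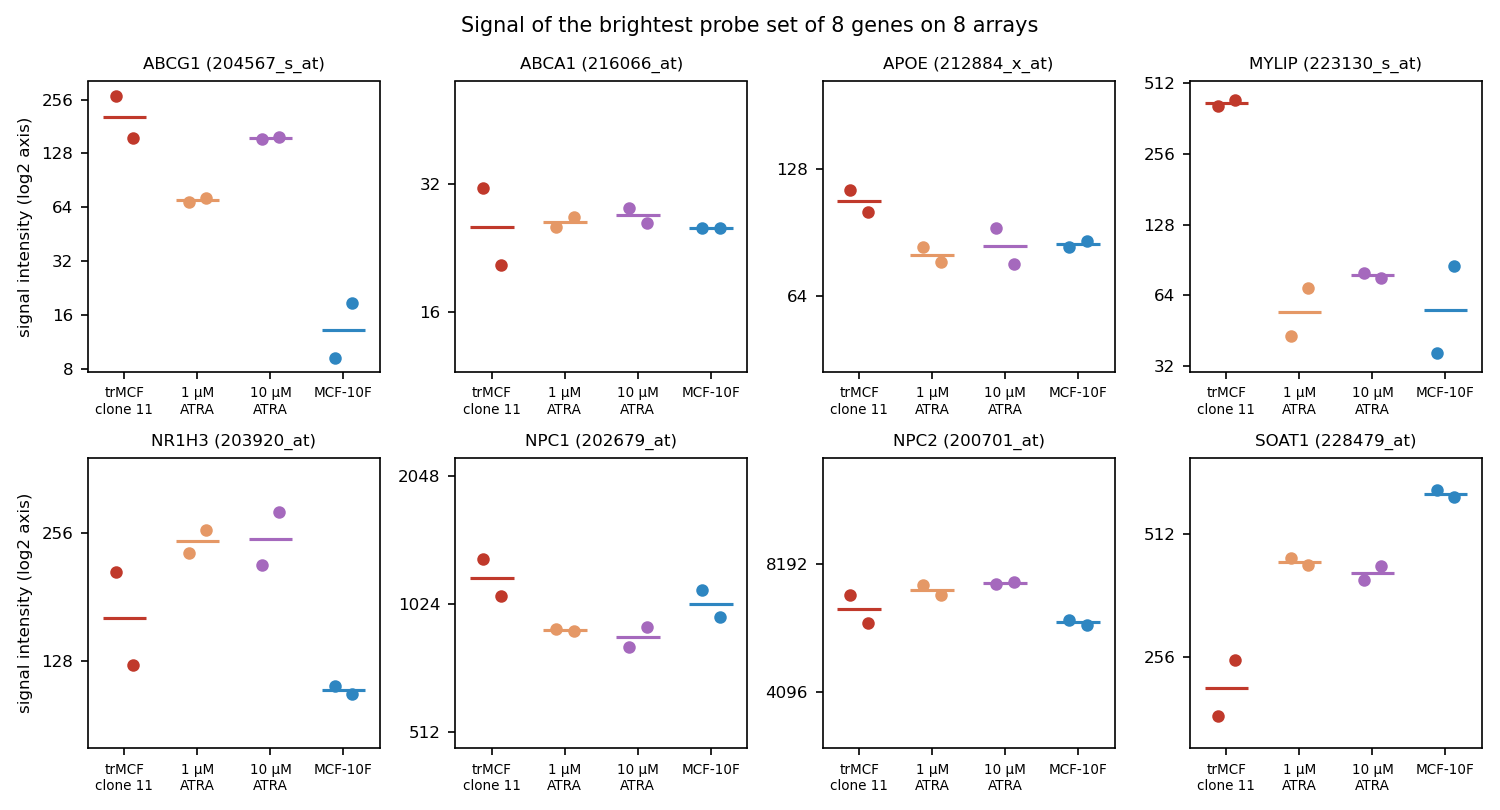
Signal of the brightest probe set of each of 8 genes (y axis, signal intensity on a log2 axis) on the 2 arrays (points) of trMCF clone 11, 1 µM ATRA, 10 µM ATRA and MCF-10F, with the geometric mean as a line. MYLIP stands at 409.6 and 434.9 in trMCF clone 11 and no higher than 85.0 on any other array, while SOAT1 stands lowest in the clone, at 183.3 and 250.7, and highest in MCF-10F, at 653.5 and 629.9.

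ABCG1, which exports cholesterol to high-density lipoprotein particles, had signals of 268.9 and 157.0 in trMCF clone 11, against 9.3 and 18.8 in MCF-10F. Both arrays of the clone were higher than both of MCF-10F. The difference was 3.96 on the log2 scale (standard error 0.40, 95% confidence interval 2.99 to 4.94, adjusted p = 0.0147), and since MCF-10F lay near 16 its size is uncertain. With signals under 16 set to 16 on all probe sets the difference was 3.57 and the call was lost (adjusted p = 0.0697). The calls of MYLIP and SOAT1 in the clone were lost in that fit too, at unchanged differences of 2.92 and −1.58 (adjusted p = 0.15 and 0.0902). Neither had a signal under 16 on its brightest probe set. The call held without trMCF clone 11 replicate 1 (3.57, adjusted p = 0.035) and without MCF-10F replicate 1 (3.45, adjusted p = 0.0487).

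After ATRA, ABCG1 had signals of 68.7 and 72.7 at 1 µM and 154.2 and 158.1 at 10 µM. Neither dose overlapped the other, and 10 µM overlapped the untreated clone. The difference from trMCF clone 11 was −1.54 at 1 µM (standard error 0.40, adjusted p = 0.12) and −0.40 at 10 µM (standard error 0.36, 95% confidence interval −1.24 to 0.45, adjusted p = 0.646). Without trMCF clone 11 replicate 2 the 1 µM difference was −1.93 and passed (adjusted p = 0.0452), and without replicate 1 it was −1.15 (adjusted p = 0.241). Compared with MCF-10F, ABCG1 stayed upregulated by 3.57 at 10 µM (standard error 0.36, adjusted p = 0.00647; 0.0894 and 0.0988 without 10 µM ATRA replicate 1 or 2), and the 2.42 at 1 µM had an adjusted p of 0.099, or 0.03 with all 8 arrays in the fit.

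ABCG1 had 3 other probe sets. On 232081_at the signals were 98.9 and 75.9 in trMCF clone 11, 22.5 and 27.9 at 1 µM, 34.3 and 33.6 at 10 µM, and 12.1 and 15.1 in MCF-10F. This probe set passed in 4 comparisons: 2.68 for the clone against MCF-10F (adjusted p = 0.00932), −1.79 for 1 µM against the clone (adjusted p = 0.0311), −1.35 for 10 µM against the clone (adjusted p = 0.0137) and 1.33 for 10 µM against MCF-10F (adjusted p = 0.0241). It therefore fell at 10 µM, where the brightest probe set did not pass. Both MCF-10F arrays were under 16 on it, so the sizes of its differences from MCF-10F are uncertain. On 211113_s_at, at 104.7 and 69.4 in the clone and 33.0 and 31.3 in MCF-10F, the clone was higher by 1.41 (adjusted p = 0.0357) and 10 µM, at 81.0 and 79.9, was higher than MCF-10F by 1.32 (adjusted p = 0.0259). The last, 230913_at, lay between 11.5 and 36.8 and passed nowhere. All 4 were higher at 10 µM than at 1 µM with no overlap of the arrays, by 0.44 to 1.14.

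MYLIP had signals of 409.6 and 434.9 in trMCF clone 11, against 36.3 and 85.0 in MCF-10F. The arrays of the clone lay close together and those of MCF-10F were 2.34-fold apart. The clone was higher by 2.92 (standard error 0.43, 95% confidence interval 1.87 to 3.98, adjusted p = 0.0323), and the value without MCF-10F replicate 1 was 2.31, with an adjusted p of 0.083. Without trMCF clone 11 replicate 1 it was 2.97, with an adjusted p of 0.0669.

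At 1 µM ATRA the signals of MYLIP were 42.8 and 68.5, and at 10 µM 79.7 and 76.2. All 4 lay far below both arrays of the clone and between the arrays of MCF-10F. MYLIP fell by 2.96 at 1 µM (standard error 0.43, adjusted p = 0.0445). Without the first array of the clone that adjusted p was 0.08, and without 1 µM ATRA replicate 1 or replicate 2 it was 0.383 or 0.342. At 10 µM the difference was −2.44 (standard error 0.39, adjusted p = 0.0186), and the adjusted p was 0.149 and 0.139 without 10 µM ATRA replicate 1 or 2. Compared with MCF-10F the differences were −0.04 at 1 µM (95% confidence interval −1.10 to 1.02) and 0.49 at 10 µM (−0.43 to 1.41). MYLIP is among the genes that the study itself selected on the MCF-10F, clone and 1 µM arrays, so its directions there are not independent evidence. The 10 µM arrays had no part in that choice, but their comparison shares the arrays of the clone.

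Of 6 probe sets of MYLIP, 4 passed in all 3 of these comparisons. On 228098_s_at the signals were 312.8 and 291.1 in the clone, 50.6 and 49.2 at 1 µM, 71.1 and 55.5 at 10 µM, and 29.5 and 70.7 in MCF-10F. The other 2 that passed beside the brightest, 223129_x_at and 220319_s_at, gave 1.76 and 1.63 for the clone against MCF-10F. In contrast, 227707_at had 96.1 and 69.9 in the clone and 56.3 and 75.3 in MCF-10F, a difference of 0.33 (adjusted p = 0.49), and −0.29 and −0.14 after 1 and 10 µM. The last, 228097_at, was 3.1-fold apart between the arrays of the clone, at 15.4 and 47.6. The 4 that passed carry the suffixes s or x, which mark probes that match more than 1 transcript, and the 2 that did not carry none.

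**Figure D2:**
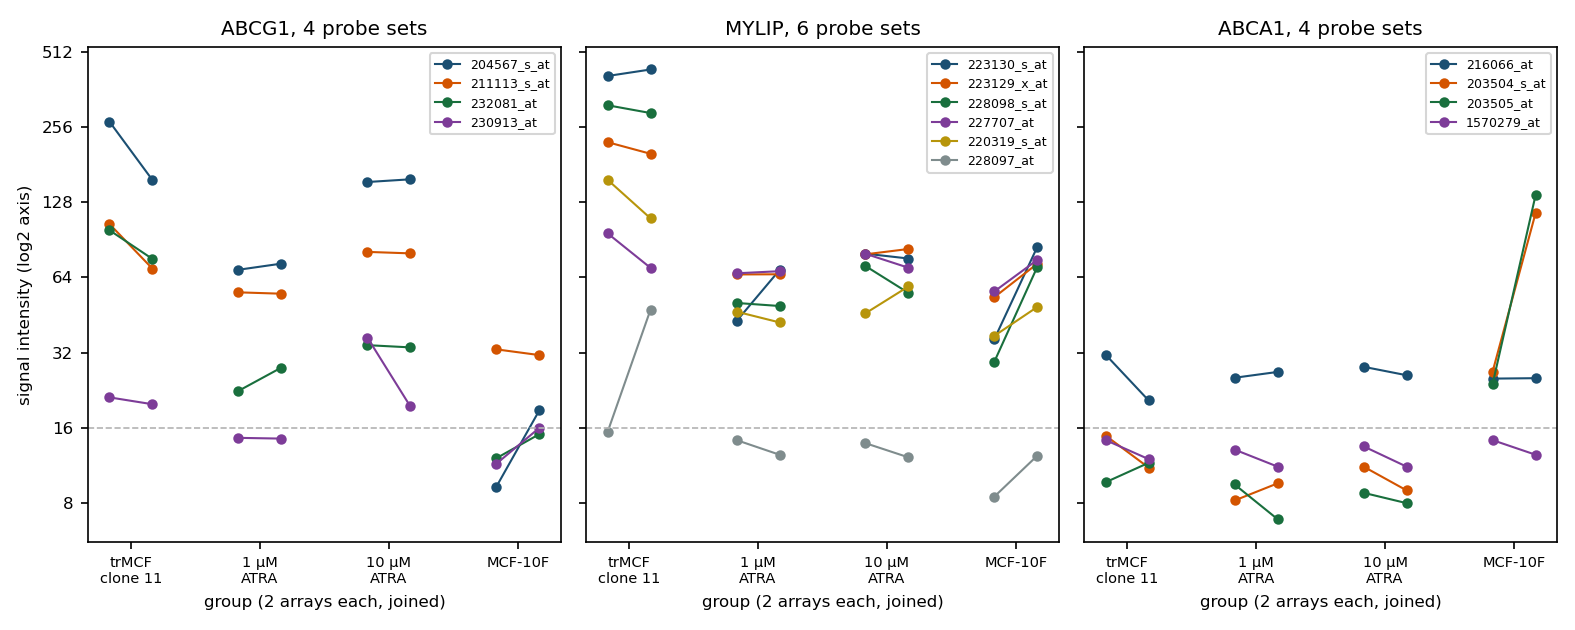
Signal of every probe set of ABCG1, MYLIP and ABCA1 (y axis, signal intensity on a log2 axis) on the 2 arrays of trMCF clone 11, 1 µM ATRA, 10 µM ATRA and MCF-10F. Lines join the arrays of a group, whose order has no meaning, and the dashed line is a signal of 16. All 4 probe sets of ABCG1 are higher at 10 µM than at 1 µM, 227707_at of MYLIP stays between 56.3 and 96.1, and a pair of ABCA1 probe sets is high on 1 MCF-10F array.

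SOAT1 had signals of 183.3 and 250.7 in trMCF clone 11, against 653.5 and 629.9 in MCF-10F. The groups did not overlap and MCF-10F had the tighter arrays. SOAT1 fell by 1.58 in the clone (standard error 0.19, 95% confidence interval −2.05 to −1.12, adjusted p = 0.022). Without MCF-10F replicate 1 or 2 the adjusted p was 0.103 or 0.0535, with differences of −1.56 and −1.61.

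After ATRA, the SOAT1 signals were 446.6 and 428.4 at 1 µM and 393.5 and 425.9 at 10 µM. Each was above both arrays of the untreated clone and below both of MCF-10F. SOAT1 rose by 0.93 at 10 µM compared with the clone (standard error 0.17, adjusted p = 0.0278; 0.0799 without 1 µM ATRA replicate 1 or 2, and 0.168 and 0.189 without 10 µM ATRA replicate 1 or 2), and the difference of 1.03 at 1 µM had an adjusted p of 0.0632. In the fit of all 8 arrays that 1 µM value passed, with an adjusted p of 0.0226, as it did without trMCF clone 11 replicate 2 (1.25, adjusted p = 0.0108). Compared with MCF-10F, the differences of −0.55 at 1 µM and −0.65 at 10 µM had adjusted p of 0.383 and 0.142, the 10 µM one passing without trMCF clone 11 replicate 1 or replicate 2 (adjusted p = 0.0326).

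The other SOAT1 probe sets ran the same way without passing. On 221561_at the signals were 146.2 and 246.8 in the clone, 434.9 and 487.1 at 1 µM, 435.6 and 411.8 at 10 µM, and 784.6 and 410.0 in MCF-10F, so that here the ATRA arrays overlapped MCF-10F. Its differences were −1.58 for the clone against MCF-10F (adjusted p = 0.0863), and 1.28 at 1 µM and 1.16 at 10 µM against the clone (adjusted p = 0.154 and 0.103). SOAT1 is also on the study's own list, so its clone and 1 µM directions are not independent evidence.

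NR1H3, the α form of LXR and itself a target of LXR in human macrophages, had signals of 207.5 and 125.0 in trMCF clone 11, 229.8 and 260.5 at 1 µM, 215.7 and 286.5 at 10 µM, and 111.5 and 106.9 in MCF-10F. MCF-10F was below every other array, and 1 array of the clone lay close to it. The ATRA groups were higher than MCF-10F by 1.16 at 1 µM (95% confidence interval 0.53 to 1.80, adjusted p = 0.186) and 1.19 at 10 µM (0.58 to 1.79, adjusted p = 0.0807). The 1 µM difference passed in the fit of only the 4 arrays compared (adjusted p = 0.041), and the 10 µM one passed without trMCF clone 11 replicate 1 or replicate 2 (adjusted p = 0.0158). The clone differed from MCF-10F by 0.56 (adjusted p = 0.305), or by 0.93 without trMCF clone 11 replicate 2 (adjusted p = 0.0236) and 0.20 without replicate 1. The doses differed from the clone by 0.60 at 1 µM and 0.63 at 10 µM (adjusted p = 0.288 and 0.226), and without trMCF clone 11 replicate 1 the 10 µM one was 0.99 (adjusted p = 0.0426).

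ABCA1 loads cholesterol onto lipid-poor apolipoproteins. Its brightest probe set had signals of 31.4 and 20.6 in trMCF clone 11, 25.4 and 26.8 at 1 µM, 28.1 and 26.0 at 10 µM, and 25.2 and 25.3 in MCF-10F. The groups lay on top of each other, with a difference of 0.01 between the clone and MCF-10F (95% confidence interval −0.54 to 0.56). Another pair of its probe sets behaved differently. On 203504_s_at the signals were 14.9 and 11.1 in the clone, 8.2 and 9.6 at 1 µM, 11.2 and 9.0 at 10 µM, and 26.8 and 115.5 in MCF-10F, and on 203505_at MCF-10F had 23.9 and 136.2 with no other array above 11.6. All 6 clone and ATRA arrays were under 16 there, while the MCF-10F arrays were 4.32- and 5.69-fold apart. The clone differed from MCF-10F by −2.11 and −2.43 on these 2, with adjusted p of 0.144 and 0.151.

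APOE, the acceptor apolipoprotein, had signals of 114.2 and 101.1 in trMCF clone 11, 83.7 and 77.0 at 1 µM, 93.0 and 76.5 at 10 µM, and 83.9 and 86.3 in MCF-10F. The clone was above all other arrays by a small margin. The differences were 0.34 for the clone against MCF-10F (95% confidence interval −0.03 to 0.70, adjusted p = 0.285), and −0.42 and −0.35 for 1 µM and 10 µM against the clone (adjusted p = 0.211 and 0.258). Its other probe sets, at 37.1 to 111.8, passed nowhere.

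NPC1, the membrane protein that lifts cholesterol out of lysosomes, had signals of 1305.1 and 1070.5 in trMCF clone 11, 892.9 and 886.1 at 1 µM, 811.8 and 904.8 at 10 µM, and 1103.4 and 955.1 in MCF-10F. Both doses lay below both arrays of the clone. The differences of −0.41 at 1 µM and −0.46 at 10 µM had adjusted p of 0.273 and 0.148, and without trMCF clone 11 replicate 2 the 10 µM one was −0.61 (adjusted p = 0.0471). The clone differed from MCF-10F by 0.20 (adjusted p = 0.58). Other NPC1 probe sets passed nowhere and were split in direction. Against the clone at 1 µM and 10 µM, 217584_at differed by −0.214 and −0.367, and 238568_s_at by 0.084 and 0.085. The last, 238873_at, lay under 16 on all arrays. NPC2, the soluble protein that hands cholesterol to NPC1, had on its single probe set signals between 5895.1 and 7447.3 on all arrays, 1.26-fold apart. Its differences were 0.11 for the clone against MCF-10F, and 0.15 and 0.20 for 1 µM and 10 µM against the clone (adjusted p = 0.762, 0.659 and 0.494).

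**Figure D3:**
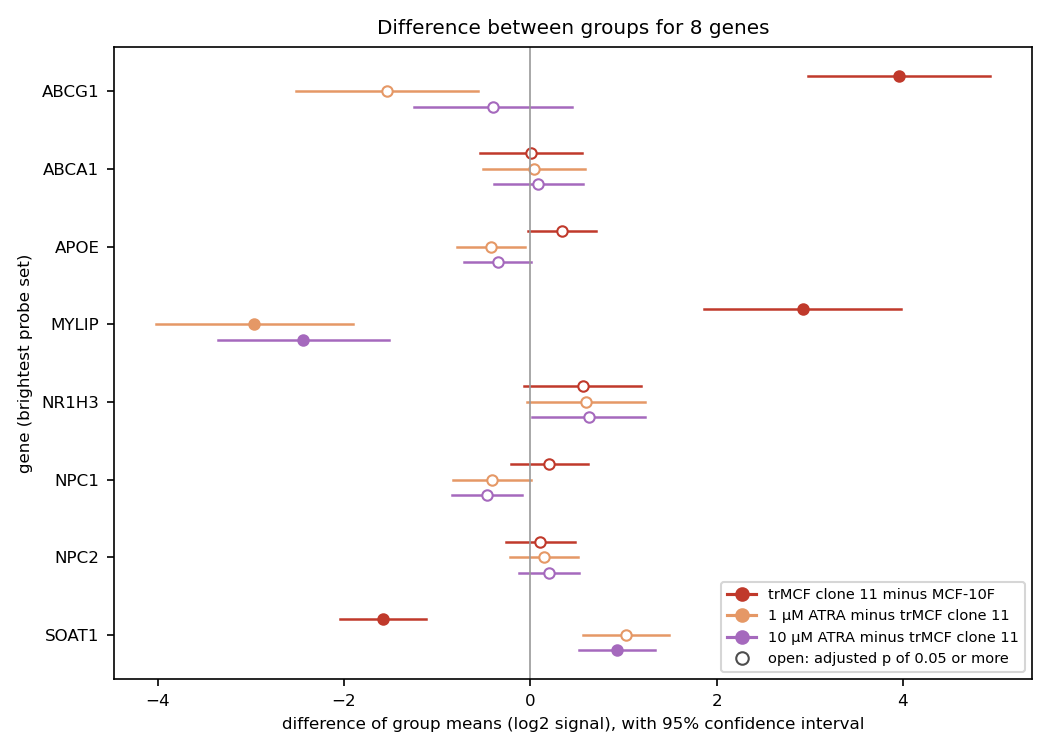
Difference of group means in log2 signal (x axis) with its 95% confidence interval for the brightest probe set of 8 genes (y axis), for trMCF clone 11 minus MCF-10F and for 1 µM and 10 µM ATRA minus trMCF clone 11. Filled points have an adjusted p under 0.05: ABCG1, MYLIP and SOAT1 in the clone, MYLIP at 1 µM, and MYLIP and SOAT1 at 10 µM. The filled ATRA points lie across 0 from the same gene in the clone. Both ATRA comparisons share the arrays of the clone with the first.

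Counted over the 8 genes, 3 were called in the clone compared with MCF-10F, 2 higher and 1 lower, where 4.53% of 19775 genes were called. By probe set 8 of 26 were called, where 3.56% of all probe sets were. The median difference was 0.27 over the 8 genes and 0.062 over all genes. By the fold of 2 and unadjusted p under 0.05 of the study's lists, the same 3 genes were called, and 9.2% of all genes. As the genes were named with such results known, nothing is read from these shares.

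Compared with the untreated clone, 1 gene was called at 1 µM (1.9% of all genes) and 2 at 10 µM (7.83%). By probe set it was 5 and 6 of 26, where 1.55% and 6.2% of all probe sets were called. The medians were −0.186 and −0.131 over the 8 genes, and −0.065 and −0.014 over all genes. By fold and unadjusted p, ABCG1, MYLIP and SOAT1 were called at 1 µM (7.89% of all genes) and MYLIP at 10 µM (8.33%). Compared with MCF-10F, none was called at 1 µM (0.612% of all genes), where 3 had an unadjusted p under 0.05 and 2, ABCG1 and NR1H3, also a fold of 2 (3.72%). At 10 µM ABCG1 was called (2.56% of all genes; 3 of 26 probe sets, and 1.8% of all), and ABCG1 and NR1H3 by fold and unadjusted p (4.51%).

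Between 10 µM and 1 µM limma called none of the 8 genes and 0.0% of all genes, where 334 genes, 1.69%, had an unadjusted p under 0.05. ABCG1 was the only one of the 8 with an unadjusted p under 0.05 and a fold of 2, which 0.101% of all genes had. Its difference was 1.14 (standard error 0.36, adjusted p = 1). That error pools the wider spread of the clone and MCF-10F arrays. In a fit of the 4 dose arrays alone the standard error was 0.107, with a 95% confidence interval of 0.89 to 1.40, an unadjusted p of 2.3e-05 and an adjusted p of 0.341. ABCG1 was singled out for this among 8 genes after its values were seen. MYLIP differed by 0.53 between the doses in the same fit (adjusted p = 0.732), and the other 6 genes by −0.10 to 0.07.

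Among themselves, over the 8 arrays, SOAT1 ran against MYLIP (Pearson's r = −0.88) and ABCG1 (r = −0.846), ABCG1 and MYLIP had r = 0.643, and NR1H3 followed NPC2 (r = 0.947). These describe 8 arrays in 4 groups of 2, so the points are not independent. Of 3091 genes whose group means spanned at least 1 on the log2 scale, those with a pattern most like ABCG1 were IMPA2 (r = 0.977), RRAGD (r = 0.972), TMEM80 (r = 0.969), RNF44 and NNT (both r = 0.965). RRAGD, a GTPase that recruits mTORC1 to the lysosome, had signals of 2168.9 and 1331.9 in the clone, 1099.6 and 870.2 at 1 µM, 1350.4 and 1063.5 at 10 µM, and 92.9 and 249.3 in MCF-10F. IMPA2, an inositol monophosphatase, had 2606.5 and 2380.3 in the clone, 1977.3 and 1986.5 at 1 µM, 2163.6 and 2533.8 at 10 µM, and 883.8 and 989.3 in MCF-10F.

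The rest of the pathway was counted over 8 lists of genes written from general knowledge. Each call named from them in the clone compared with MCF-10F was lost in the fit of only the 4 arrays compared. Of 22 LXR target genes 19 had a value, and in the clone 2 were called higher, ABCG1 and MYLIP, and 2 lower, 4 of 19 where 4.53% of all genes were called, with a median difference of 0.095 where that of all genes was 0.062. ABCG1 and MYLIP are among the genes chosen with these results known. The lower ones were LPL, a lipase that frees fatty acids from lipoproteins, and SMPDL3A, a phosphodiesterase that LXR induces in human macrophages. LPL had 43.3 and 39.9 in the clone, against 111.4 and 158.6 in MCF-10F, and fell by 1.68 (adjusted p = 0.0239). SMPDL3A had 89.8 and 78.2, against 247.8 and 179.3, and fell by 1.33 (adjusted p = 0.037, or 0.0569 with the replicate number as a block). The mean over all its probe sets differed by only −0.575 (adjusted p = 0.135). Its call was also lost without trMCF clone 11 replicate 1 (−1.43) and without MCF-10F replicate 1 (−1.097). SMPDL3A is on the study's own lists made from the MCF-10F, clone and 1 µM arrays, so its directions there are not independent evidence. The lipid synthesis targets SREBF1, SCD and FASN differed by 0.38, −0.43 and −0.60 in the clone, with adjusted p of 0.506, 0.555 and 0.346.

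Beside MYLIP no LXR target was called after either dose compared with the clone, with medians of −0.10 at 1 µM and −0.01 at 10 µM. SMPDL3A, at 161.0 and 189.2 at 1 µM and 136.8 and 173.7 at 10 µM, lay above both arrays of the clone, by 1.06 and 0.88 (adjusted p = 0.0744 and 0.0579). LPL stayed low, at 32.2 and 37.2 at 1 µM and 40.7 and 27.9 at 10 µM. It was downregulated compared with MCF-10F, with differences of −1.94 and −1.98 (adjusted p = 0.0363 and 0.0124). Both calls were lost with signals under 16 set to 16 (adjusted p = 0.159 and 0.0727). The 1 µM call was also lost with the replicate block (adjusted p = 0.0566) and without MCF-10F replicate 2 (−1.686). Each was lost without replicate 1 or 2 of its dose, with differences of −1.837 and −2.045 at 1 µM, and −2.249 and −1.706 at 10 µM. ABCG5 and ABCG8, the exporters of liver and gut, differed from the clone by −0.19 to −0.02 at the doses.

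Of 12 partners and coregulators of LXR 9 had a value, and limma called none in the clone and none at 1 µM, with 4 of 9 at an unadjusted p under 0.05 in each, which 22.9% and 21.6% of all genes had. NRIP1, a corepressor of nuclear receptors and a known retinoid target in breast cancer lines, had 714.8 and 1138.0 in the clone, 3381.8 and 3001.6 at 1 µM, 3201.3 and 2787.0 at 10 µM, and 1392.4 and 2220.4 in MCF-10F. It rose by 1.73 at 10 µM (adjusted p = 0.0204; 0.168 and 0.129 without 10 µM ATRA replicate 1 or 2, and 0.0605 without 1 µM ATRA replicate 1 or 2), and the 1.82 at 1 µM had an adjusted p of 0.0559. NRIP1 also stands on the study's own lists for ATRA, so its direction is not independent evidence. RXRA and RXRB, which code for the partner that LXR and RAR share, differed by −0.70 and −0.53 at 1 µM (adjusted p = 0.113 and 0.198) and by −0.83 and −0.73 at 10 µM (adjusted p = 0.051 and 0.147).

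The receptors that MYLIP acts on and their kin were 8 of 11 genes with a value. SORL1, a sorting receptor of this family, had 255.4 and 179.0 in the clone, 74.8 and 59.0 at 1 µM, 72.6 and 55.0 at 10 µM, and 82.8 and 97.2 in MCF-10F. The clone was above all other arrays, and SORL1 fell by 1.69 at 1 µM (adjusted p = 0.0414). Without trMCF clone 11 replicate 1 that adjusted p was 0.0589, without MCF-10F replicate 1 or 2 it was 0.0568, and with the replicate block it was 0.0591. SORL1 is on the study's own list, as SMPDL3A is, so its clone and 1 µM directions are not independent evidence. The difference at 10 µM was −1.76 (adjusted p = 0.0115; 0.0852 and 0.104 without 10 µM ATRA replicate 1 or 2). LRP8 and VLDLR, both substrates of MYLIP, differed by 1.83 and −1.46 at 10 µM against the clone (adjusted p = 0.0599 and 0.0608), and by −2.07 and 0.52 in the clone against MCF-10F (adjusted p = 0.0843 and 0.538). OLR1, a scavenger receptor, was called higher in the clone and lower at 10 µM, but at signals of 18.6 and 15.3 in the clone and 7.3 and 8.1 at 10 µM, and with signals under 16 set to 16 both calls were lost, the first also with the replicate block (adjusted p = 0.0697).

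Lysosomal and intracellular sterol movement, the list of NPC1 and NPC2, had 22 of 23 genes with a value, none called by limma in the clone compared with MCF-10F (5 of 22 at an unadjusted p under 0.05, and 22.9% of all genes), none at 1 µM (5, and 21.6% of all genes) and 3 lower at 10 µM compared with the clone, where 7.83% of all genes were called. These were OSBPL5, a sterol and lipid transfer protein, by −1.30 (adjusted p = 0.00975), LAMP2, a lysosomal membrane protein, by −0.98 (adjusted p = 0.0222), and OSBP, the oxysterol binding protein, by −0.71 (adjusted p = 0.0264). All 3 calls were lost in the fit of only the 4 arrays compared (adjusted p = 0.0524 for OSBPL5, 0.0831 for LAMP2 and 0.118 for OSBP) and without 10 µM ATRA replicate 1 or 2 (0.0957 to 0.2). Those of LAMP2 and OSBP were also lost without 1 µM ATRA replicate 1 or 2 (0.0676 and 0.0801) and with the mean over probe sets (0.0712 and 0.0501). OSBP had 1034.1 and 1065.7 in the clone, 628.9 and 644.4 at 1 µM, 605.2 and 680.5 at 10 µM, and 655.0 and 657.3 in MCF-10F. The median of the list was −0.30 at each dose, with 17 of 22 genes below 0, and the median of all genes was −0.065 at 1 µM and −0.014 at 10 µM.

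Of 7 genes of esterification and ester breakdown, SOAT1 was the only one called in the clone, where 4.53% of all genes were called. SOAT1 was chosen with its results known. At 10 µM SOAT1 was called higher and LCAT, which esterifies cholesterol on lipoproteins, lower, where 7.83% of all genes were called. LCAT differed by −1.31 (adjusted p = 0.0486), or by −0.97 without trMCF clone 11 replicate 1 (adjusted p = 0.113), and by 0.10 on its probe set without such a suffix (adjusted p = 0.845). NCEH1, the hydrolase that releases cholesterol from ester, differed by −2.09 in the clone and 0.95 at 10 µM (adjusted p = 0.115 and 0.391), and SOAT2, the second acyltransferase, by 0.01 and 0.06. Among 10 genes of efflux ABCG1, also chosen with its results known, was the only one called in the clone, where 4.53% of all genes were. SCARB1, a receptor that exchanges sterol with high-density lipoprotein, differed there by −0.75 (adjusted p = 0.23). limma called none of the 10 at either dose compared with the clone, where 3 at 1 µM and 1 at 10 µM had an unadjusted p under 0.05, as had 21.6% and 24.0% of all genes.

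Genes of sterol synthesis under SREBP2, which cells lower when sterol is plentiful, had 20 of 25 with a value. In the clone 3 were called lower and none higher, where 4.53% of all genes were called, with a median of −0.94 and 18 of 20 below 0, where the median of all genes was 0.062. EBP, an isomerase of the last steps, had 359.1 and 490.9 in the clone, against 1584.5 and 1203.7 in MCF-10F, and fell by 1.72 (adjusted p = 0.025, or 0.11 without MCF-10F replicate 1). FDPS and NSDHL, enzymes earlier and later in the route, both differed by −1.53 (adjusted p = 0.0326 and 0.0445), and both calls were lost without MCF-10F replicate 1 or 2 and without trMCF clone 11 replicate 1, with adjusted p of 0.051 and 0.0682 in that last case, and with the replicate block (0.0555 and 0.0706). HMGCS1, at the head of the route, differed by −1.45 (adjusted p = 0.15). limma called no gene of the list at either dose compared with the clone (1 and 3 at an unadjusted p under 0.05, and 21.6% and 24.0% of all genes), with medians of 0.04 at 1 µM and 0.11 at 10 µM. Compared with MCF-10F, EBP and NSDHL fell at 10 µM, with differences of −1.59 and −1.36 (adjusted p = 0.0167 and 0.0453) and a list median of −0.68. Both calls were lost with signals under 16 set to 16 (0.0795 and 0.144). That of NSDHL was also lost with the replicate block (0.067) and with limma's trend and robust prior (0.0511). Both were lost without MCF-10F replicate 1 (−1.391 and −1.135), and with any 1 array of 10 µM or 1 µM left out. Without 10 µM ATRA replicate 1 or 2 the differences were −1.465 and −1.713 for EBP, and −1.348 and −1.374 for NSDHL. Of 9 measured genes of the oxysterol routes, EBP, which is on this list as well, was the only one called in the clone, where 4.53% of all genes were. CYP27A1 and CH25H, which make ligands of LXR, differed by −0.01 and −0.77 in the clone (adjusted p = 0.984 and 0.205).

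**Figure D4:**
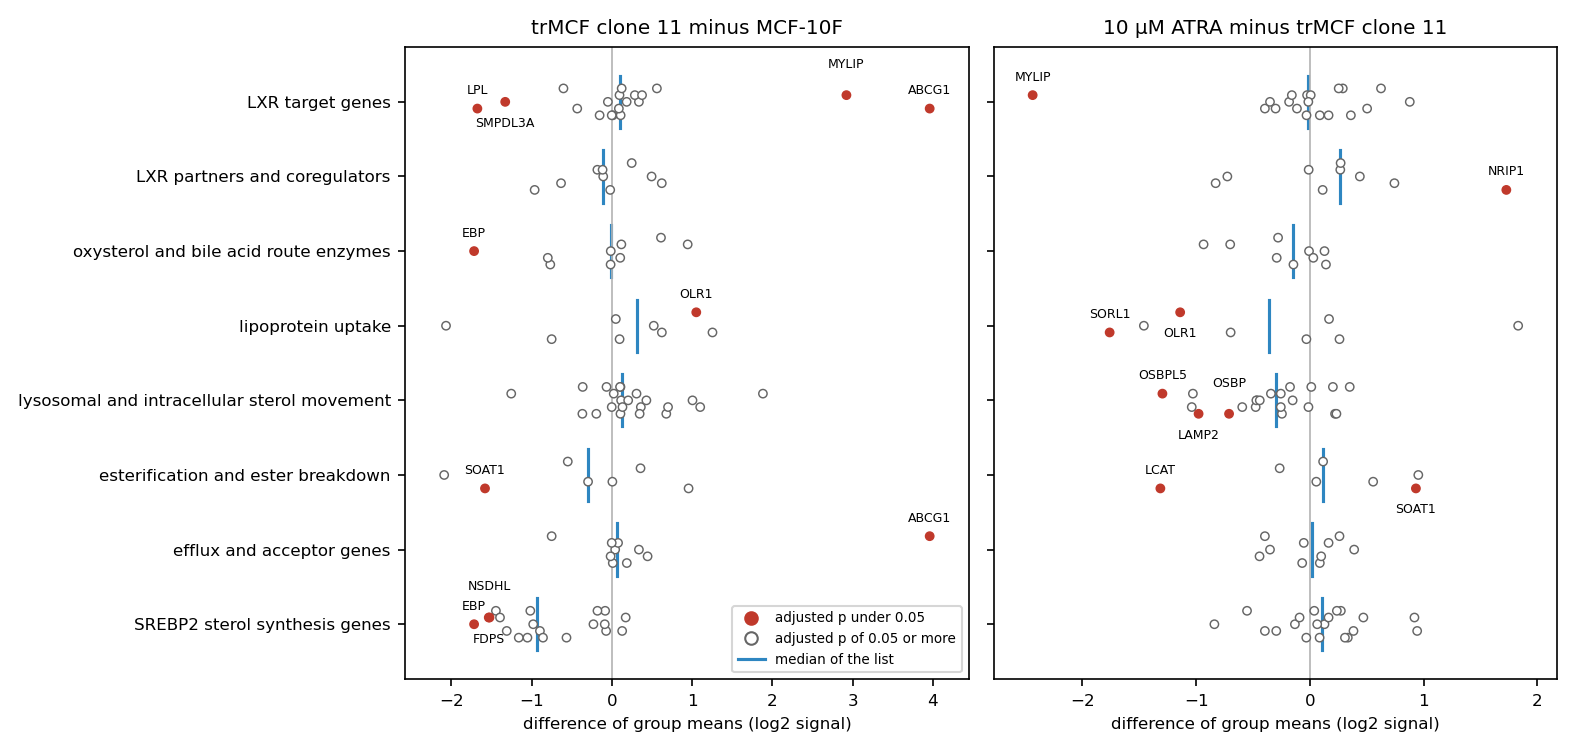
Difference of group means in log2 signal (x axis) of each measured gene of 8 lists (y axis), for trMCF clone 11 minus MCF-10F on the left and 10 µM ATRA minus trMCF clone 11 on the right, with genes of an adjusted p under 0.05 in red and named and the median of each list as a line. The sterol synthesis list has its median at −0.94 in the clone and at 0.11 at 10 µM, while the LXR target list has ABCG1 and MYLIP far right of a median of 0.095 in the clone.

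Summed signals of markers of other cell types differed between some groups, in part through single genes. The summed signal of 10 macrophage markers was 390 to 499 in the clone, 698 to 796 at 1 µM, 877 to 930 at 10 µM and 313 to 691 in MCF-10F. CD14 had 149.3 and 108.3 in the clone, 524.4 and 435.7 at 1 µM, 571.6 and 660.6 at 10 µM, and 49.1 and 401.6 in MCF-10F, while PTPRC, C1QA, C1QB, C1QC and CD163 stayed at 9.9 to 29.9 on all arrays. Against the clone, 4 of the 10 markers had a positive difference and 6 a negative one at each dose. Their medians were −0.123 at 1 µM and −0.002 at 10 µM. MARCO went from 65.2 and 52.6 in the clone to 33.4 and 36.4 at 10 µM. The sum of 7 fibroblast markers was 468 to 684 in the clone, 310 to 316 at 1 µM, 330 to 333 at 10 µM and 1050 to 1780 in MCF-10F, with COL1A2 at 33.7 and 30.7 in the clone and 186.0 and 192.9 in MCF-10F. At 1 µM against the clone 2 of the 7 had a positive difference and 5 a negative one (median −0.033). At 10 µM it was 5 and 2 (median 0.152). COL1A1 had 252.3 and 495.1 in the clone, 112.5 and 110.0 at 1 µM, and 82.9 and 81.0 at 10 µM. Sums of 6 adipocyte markers, among them LPL, ran from 187 to 302 and those of 5 hepatocyte markers from 189 to 247 over all arrays. Their part in the values of ABCG1, MYLIP, SOAT1 and LPL was not tested.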

How the data were processed

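RNA of 8 samples was hybridised to Affymetrix U133 Plus 2.0 arrays. The deposited values are linear intensities, 1 per probe set and array, which the authors had normalized between arrays. Both MAS 5.0 (global scaling) and Iterative Plier 16 appear in the Methods, without a statement of which gave the deposited table. Precision is limited by 2 arrays per group.

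Signals were log2 transformed and not rescaled. Control probe sets, 62 of 54675, were removed. Of 54613 tested, 41091 name 1 gene, 1801 several and 11721 none in the annotation, giving 19775 genes, each by its probe set with the highest mean. Groups were compared in limma 3.58.1 (lmFit, eBayes) under R 4.3.3, with 1 mean per group, Benjamini-Hochberg adjustment over all probe sets and a threshold of 0.05. As in the study, 1 µM ATRA, trMCF clone 11 and MCF-10F (6 arrays) were fitted together, and all 8 arrays for 10 µM. The steps were tested on simulated data. Other fits, scalings, floors, probe set choices and left-out arrays were tried. All 9 genes named here, and the lists, were chosen with earlier results of these data known, and from each list up to 4 genes with the smallest p are named, with others (SCD, ABCG5, ABCG8, SOAT2, CYP27A1, HMGCS1, VLDLR in the clone) added for their role after their values were seen. Promoter windows are RefSeq's (GRCh38.p14). Tables were read with pandas 2.3.3 and figures drawn with matplotlib 3.10.9. The deposited columns of 8 samples were all used.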

Additional observations from a re-analysis of the deposited data

How the results depend on the processing

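Groups of 2 arrays limit every value, and signals under 16 have little meaning. The counts of called genes among the 8 were recomputed under other settings. With only the 4 arrays compared, 0 were called in the clone against MCF-10F (3 in the reported fit), 1 at 10 µM against the clone (2 reported) and 1 at 1 µM against MCF-10F (0 reported; NR1H3). With all 8 arrays, 2 were called at 1 µM against the clone (MYLIP and SOAT1) and 1 at 1 µM against MCF-10F (ABCG1). With signals under 16 set to 16, 0 were called in the clone, 0 at 1 µM and 0 at 10 µM against the clone, and ABCG1 remained at 10 µM against MCF-10F. Averaging every probe set of a gene left 1 at 10 µM against the clone. On probe sets without a shared-target suffix, where a gene had any, 2, 1 and 2 were called in the clone, at 1 µM and at 10 µM. MYLIP was then called in none of these 3 comparisons (adjusted p = 0.49, 0.556 and 0.816). ABCG1 was called at 1 µM and 10 µM against the clone (adjusted p = 0.0311 and 0.0137). The fold of 2 and unadjusted p called 3 at 1 µM and 1 at 10 µM against the clone, 2 at 1 µM and 2 at 10 µM against MCF-10F, and 1 between the doses. The cause was not tested.

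With each array left out in turn, the counts ran from 0 to 4 in the clone against MCF-10F, from 0 to 3 at 1 µM and from 0 to 3 at 10 µM against the clone, from 0 to 1 at 1 µM and from 0 to 3 at 10 µM against MCF-10F, and were 0 throughout between the doses. The count was 0 in the clone without either 1 µM array, which leaves the lone 1 µM array without a spread of its own, and 0 at 1 µM without trMCF clone 11 replicate 1. Deviations of arrays that share a replicate number correlated at −0.0562 to 0.351 between groups, so the numbers were not taken as pairs. The fit with the number as a replicate block called 3, 1 and 2 genes in the clone, at 1 µM and at 10 µM, 0 and 1 against MCF-10F and 0 between doses, the same counts as without it. Among other genes named, it ended the calls of FDPS (adjusted p = 0.0555), NSDHL (0.0706), SMPDL3A (0.0569) and OLR1 (0.0697) in the clone, SORL1 at 1 µM against the clone (0.0591), and LPL at 1 µM (0.0566) and NSDHL at 10 µM (0.067) against MCF-10F.

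Of 1105 values of single genes under these settings, 895 kept their direction and side of the threshold, 162 lost a call and 22 gained one. Most of the 895 had no call in the reported fit and stayed uncalled. The 1105 are therefore no measure of how often a call held, and only values with a reported call could lose one. LCAT at 10 µM against the clone changed sign, to 0.097, on its probe set without a shared-target suffix. The other 25 changed sign and passed under neither setting, the largest of them 0.487 in the reported fit. Some were larger under the other setting. With the mean over all probe sets, ABCA1 in the clone against MCF-10F went from 0.011 to −1.141. Its differences from MCF-10F went from 0.049 to −1.39 at 1 µM and from 0.099 to −1.315 at 10 µM.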
